A study of Mus musculus with 4 samples.

Results

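The transcripts of 10 neutrophil genes were followed by the granule class of their products in immune cells of the mouse spinal cord. They were found by symbol in the 31053 rows of each count matrix, and all 10 were present. Elane, Mpo, Prtn3 and Ctsg stood for the primary granules, Ltf, Camp, Ngp and Lcn2 for the secondary granules, Ly6g for the neutrophil surface and Fcnb for the ficolin granules.

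CD45+ cells were sorted from spinal cord segments of 3-month-old C57BL/6 mice of both sexes after perfusion with saline and sequenced as 4 libraries on a 10x 3′ platform. The study calls the uninjured libraries sham, which it defines as laminectomy at T10 without contusion, while their labels read healthy spinal cords. Of the sham libraries, 1 was dissociated by the standard protocol and 1 with actinomycin D (ActD), a blocker of transcription, in every step. The injured libraries came from cords with a moderate T10 contusion at 3 and 14 days post injury (dpi), both dissociated with ActD. Each condition was 1 library, the methods give the number of mice over all groups and not for each library, and no difference between libraries could therefore be set against a spread between replicates. The 3 dpi and 14 dpi libraries are each compared with the same ActD sham library. Levels are in CPM, the UMIs of a gene per 1000000 UMIs summed over the cells of a class, and since 1 UMI stands for 1 transcript 3′ end they are not divided by length. Every interval given is at the 95% level and holds only the error of counting UMIs or cells.

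Neutrophils make their granules in sequence. Promyelocytes in the bone marrow transcribe the serine proteases and myeloperoxidase of the primary, or azurophil, granules, and myelocytes and metamyelocytes then transcribe the proteins of the secondary, or specific, granules. Transcription of both sets has largely ended by the time a mature cell enters the blood, while the proteins stay stored, so that the transcripts report the stage of a cell rather than the content of its granules.

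Some members lie near each other in the genome (GRCm38, GENCODE M21). Prtn3 (chr10:79874476-79883174) and Elane (chr10:79886247-79888215) lie on the plus strand with 3072 bases between them, and Camp (chr9:109847379-109849617), Ngp (chr9:110419747-110423012) and Ltf (chr9:111019271-111042767) lie on chromosome 9 with 0.57 megabases between Camp and Ngp, 0.596 between Ngp and Ltf, and other genes in both gaps. The other members lie at chr11:87793581-87804413 (Mpo), chr14:56099881-56102574 (Ctsg), chr2:32384633-32388252 (Lcn2), chr15:75155240-75159126 (Ly6g) and chr2:28076378-28084885 (Fcnb). Ly6g belongs to a multigene family and has Ly6g2 and Ly6a2 as neighbours, so that its counts are uncertain where reads fit more than 1 copy.

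To show the sequence in front of an early, a later and a ficolin granule gene, the promoters of Elane, Ngp and Fcnb are shown from RefSeq (GRCm38.p6), as 250 bases before and 50 bases after the annotated start, 5′ to 3′ on the strand of the gene. Capitals mark matches on either strand to GAGGAA, a PU.1-type core, in Elane, and to TTGCNNAA, a C/EBP-type core, in Ngp and Fcnb.
Elane, chr10:79886062-79886361, plus strand: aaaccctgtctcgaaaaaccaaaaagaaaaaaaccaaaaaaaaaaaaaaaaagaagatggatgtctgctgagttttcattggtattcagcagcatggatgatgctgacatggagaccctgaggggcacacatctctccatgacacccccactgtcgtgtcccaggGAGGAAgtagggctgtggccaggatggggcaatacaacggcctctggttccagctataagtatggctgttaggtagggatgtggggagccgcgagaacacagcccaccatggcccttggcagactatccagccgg
Ngp, chr9:110419558-110419857, plus strand: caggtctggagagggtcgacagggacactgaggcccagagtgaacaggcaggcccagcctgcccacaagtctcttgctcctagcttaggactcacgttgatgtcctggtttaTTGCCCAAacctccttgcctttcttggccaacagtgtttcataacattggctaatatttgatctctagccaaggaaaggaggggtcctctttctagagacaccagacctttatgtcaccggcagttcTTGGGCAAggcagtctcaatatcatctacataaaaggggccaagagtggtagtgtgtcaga
Fcnb, chr2:28084829-28085128, minus strand: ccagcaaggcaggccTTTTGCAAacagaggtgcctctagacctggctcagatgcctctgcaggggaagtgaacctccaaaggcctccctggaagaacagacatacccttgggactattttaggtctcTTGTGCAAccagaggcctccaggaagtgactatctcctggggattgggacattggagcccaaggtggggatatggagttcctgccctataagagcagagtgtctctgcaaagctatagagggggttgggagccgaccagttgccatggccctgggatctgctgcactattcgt
GAGGAA was found in 7 of the 10 members (Elane, Mpo, Prtn3, Ctsg, Ltf, Lcn2 and Ly6g) and in 28.1% of 32544 promoters of the same length. TTGCNNAA was found in 5 of the 10 (Ltf, Ngp, Lcn2, Ly6g and Fcnb) and in 10.8% of these promoters. All 4 primary genes held the first motif in this window and none held the second. Camp held neither. A match is a description of letters, not of a bound site.

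The libraries held 6827 (standard sham), 2439 (ActD sham), 10763 (3 dpi) and 11631 barcodes (14 dpi) and 60412094, 27447471, 125270696 and 129935880 UMIs, and 5099, 2139, 8342 and 9208 cells were kept. Neutrophils were cells with UMIs of at least 3 of 6 mature neutrophil genes (Csf3r, Cxcr2, Il1r2, Hdc, G0s2 and Retnlg) that made up at least 0.1% of the cell's UMIs, and progenitor-like cells had UMIs of at least 3 of 6 progenitor genes (Ms4a3, Gfi1, Cebpe, Myb, Kit and Cd34). Neither gate used a member. The neutrophil gate held 331, 75, 841 and 1008 cells (6.49%, 3.51%, 10.1% and 10.9% of cells kept), with median depths of 6342, 13430, 2540 and 5104 UMIs, and the progenitor gate held 124, 23, 8 and 205 cells (2.43%, 1.08%, 0.0959% and 2.23%). The progenitor gate took deep cells, with median depths of 37568, 62032, 19091 and 24128 UMIs, and only 3 cells of 14 dpi passed it after thinning to 1000 UMIs. Both gates are ranges and not types: 11, 5, 28 and 37 neutrophils lay within 0.05 points above the 0.1% limit, and 60, 18, 4 and 110 progenitor-like cells had exactly 3 of the 6 genes, as had 4, 0, 287 and 62 neutrophils. Libraries shared 2 to 24 barcodes pair by pair.

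All 5 check markers (S100a8, S100a9, Mmp9, Clec4d and Trem1) had UMIs in the gated neutrophils of every library. They also had UMIs in the macrophage- and microglia-like cells of every library, so that presence alone does not tell the classes apart. Their sum in neutrophils was lowest at 3 dpi, at 67057 CPM, against 1481 CPM in the macrophage- and microglia-like cells. It was 351077 against 3550 CPM at 14 dpi, 342020 against 1381 in the ActD sham and 296412 against 7390 in the standard sham. The 5 markers did not move together. At 3 over 14 dpi S100a8 and S100a9 were over 2-fold lower, as were 5.92% of all genes, and no check marker was higher. Against the ActD sham S100a8, S100a9 and Mmp9 were over 2-fold lower, where 7.81% of genes were. Clec4d and Trem1 were over 2-fold higher in that pair, where 49.8% were. S100a8 and S100a9 together took a median of 30.6%, 32.9% and 35.0% of UMIs per cell in the standard sham, ActD sham and 14 dpi libraries but 3.30% at 3 dpi, where 181 of the 841 cells were below 1%. The 3 dpi neutrophils also carried more UMIs of 4 macrophage genes (C1qa, Ms4a7, Mrc1 and Pf4), at 1184 CPM in sum against 65.4 to 244 CPM elsewhere. Their part in the results below was not tested. The 3 dpi and standard sham matrices carry software version 3.0.1 and the others 3.1.0, so that in the 3 dpi comparisons, and in the comparison of the sham libraries, the condition and the version cannot be told apart.

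In neutrophils the secondary granule genes were abundant in both sham libraries and at 14 dpi, and were far lower at 3 dpi. Their sum was 64492 CPM in the standard sham, 69591 in the ActD sham, 4055 at 3 dpi and 57249 at 14 dpi. The sum at 3 dpi was thus lower than at 14 dpi by a log2 ratio of -3.82 (-3.85 to -3.79) and lower than in the ActD sham by -4.10. Against this, 14 dpi and ActD sham neutrophils differed by -0.28 and the sham libraries by -0.11 (standard over ActD).

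Camp, the cathelicidin precursor, stood at 18700 and 16101 CPM in the standard and ActD sham, 1018 CPM at 3 dpi and 18261 CPM at 14 dpi. Ngp, a cystatin-like granule protein, stood at 25977, 22092, 1054 and 19845 CPM in the same order. Ltf, the iron-binding lactotransferrin, stood at 6253, 12146, 270 and 7037 CPM. For each of the 3 genes the 3 dpi library was the lowest by more than 10-fold, and the order of the other libraries differed from gene to gene. Lcn2, the siderophore-binding lipocalin, stood at 13562, 19253, 1713 and 12106 CPM. Its 3 dpi level was also the lowest, but by less: the log2 ratio of 3 over 14 dpi was -2.82 for Lcn2, against -4.17 for Camp, -4.24 for Ngp and -4.70 for Ltf.

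Ly6g, a GPI-anchored surface protein used to sort neutrophils, stood at 756, 730, 36.2 and 817 CPM. The sham libraries overlapped in their intervals (722 to 791 and 682 to 779 CPM), 14 dpi lay just above both (795 to 840 CPM) and 3 dpi lay far below (29.0 to 44.6 CPM), with a log2 ratio of -4.50 over 14 dpi. Fcnb, a ficolin that binds sugars on microbes, stood at 128, 67.0, 3.29 and 58.7 CPM. Its order was the standard sham first, ActD sham and 14 dpi with overlapping intervals next and 3 dpi last, where 3 cells held its 8 UMIs. The plot of levels by library shows these shifts beside those of the progenitor-like cells.

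**Figure D1:**
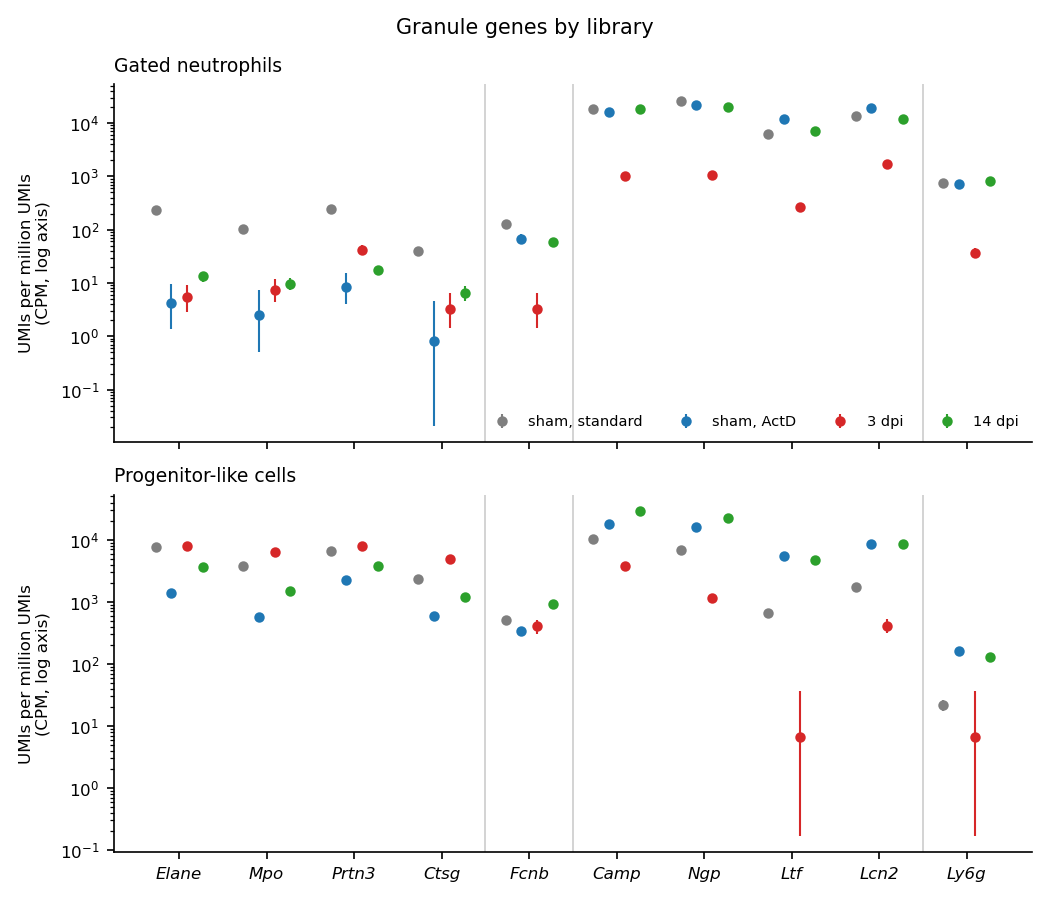
Level of each granule gene (CPM, log axis) in gated neutrophils (top) and progenitor-like cells (bottom), 1 point per library with its 95% Poisson interval, which for most points is smaller than the symbol. The 3 dpi points of Camp, Ngp, Ltf, Lcn2 and Ly6g lie below those of the other libraries in neutrophils, and the primary genes and Fcnb lie higher in progenitor-like cells than in neutrophils of the same library.

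Of the 10 members, 7 were over 2-fold lower at 3 dpi than at 14 dpi (Elane and all members outside the primary class), where 5.92% of the 9069 genes measured were. Prtn3 alone was over 2-fold higher (1.29), as were 53.1% of all genes. The Elane ratio (-1.31) turned to 1.12 when the gate limit was set at 0.05% of UMIs, and that of Prtn3 to -0.85 when the cells between the gates, described last, were added. The median gene was higher at 3 dpi by a log2 ratio of 1.08. With TMM scaling, which takes 1.17 from every log2 ratio of this pair, the secondary sum stood at -4.99, and 19.8% of genes were over 2-fold higher and 22% lower. The primary sum turned from 0.32 (0.02 to 0.62) to -0.85 with TMM, so that it had no direction that held in both scalings. Against the ActD sham, 6 of the 8 members with at least 20 UMIs were over 2-fold lower at 3 dpi, where 7.81% of 8170 genes were, and 2 were higher (Mpo and Prtn3), where 49.8% were (18.9% and 29% with TMM scaling).

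The mean over a class hid a division between cells. Among the 660 neutrophils of 3 dpi with at least 1% of UMIs from S100a8 and S100a9 the secondary sum was 5000 CPM, and among the other 181 it was 358 CPM. At 3 dpi 19 of 841 neutrophils (2.26%) gave at least 1% of their UMIs to the secondary genes, against 217 of 331 in the standard sham, 57 of 75 in the ActD sham and 499 of 1008 at 14 dpi. These 19 cells held 74.6% of the secondary UMIs of the 3 dpi neutrophils, with Camp at 18486 CPM and Ltf at 4529 CPM, and they held 0 UMIs of the primary genes. The other 822 cells had Camp at 8.70 CPM, Ltf at 24.4 CPM, Ly6g at 16.5 CPM and Lcn2 at 1030 CPM. In the macrophage- and microglia-like cells of the same library Camp stood at 13.1 CPM and Lcn2 at 29.1 CPM, or at 3.21 and 12.7 CPM when cells with granule transcripts at 0.1% of UMIs were left out of them as well. Whether these cells made Lcn2 themselves was not tested. Lcn2 was above both values, and Camp was above the second and below the first.

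**Figure D2:**
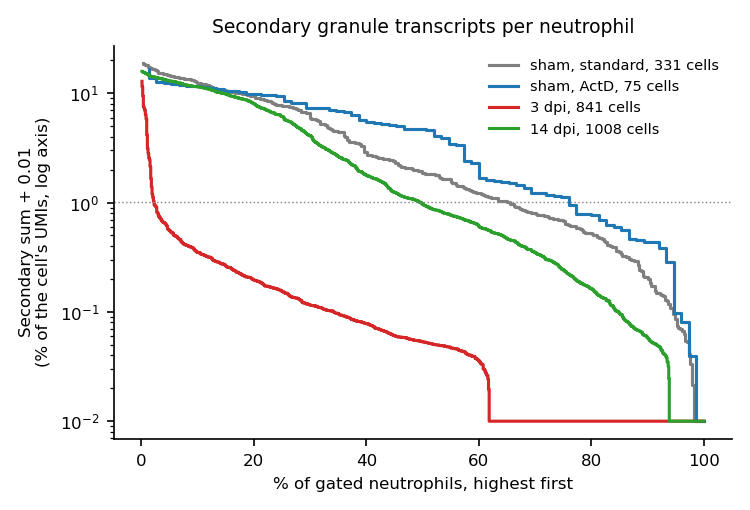
Share of UMIs from the 4 secondary granule genes (with 0.01 added, log axis) in every gated neutrophil, ranked from the highest to the lowest within its library. The dotted line marks 1%, which 2.26% of the 3 dpi cells and 49.5% of the 14 dpi cells reach, and the median cell holds 0.0431% at 3 dpi and 0.958% at 14 dpi.

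Cells that had little of the secondary genes were found at 14 dpi as well. Among the 509 neutrophils of 14 dpi below 1%, Lcn2 stood at 3134 CPM, Ly6g at 435 CPM, Camp at 140 CPM and Ltf at 40.7 CPM. The corresponding 18 cells of the ActD sham held Lcn2 at 4632 CPM and Ly6g at 765 CPM. The limit uses the secondary sum itself, so that the levels of its genes in these cells are a description. Ly6g, which the limit did not use, stood at 435 CPM at 14 dpi and 16.5 CPM at 3 dpi.

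Shares of cells with a transcript were also lowest at 3 dpi after each cell had been thinned to 1000 UMIs, which no cell of the gate fell below, whereas the order of the other libraries differed from that of the CPM for Camp and Ly6g. Lcn2 was found in 94.9% and 96.0% of neutrophils of the standard and ActD sham, 39.5% at 3 dpi and 83.3% at 14 dpi (97.0%, 98.7%, 58.0% and 89.4% before thinning). Camp was found in 55.9%, 65.3%, 2.38% and 48.8% (71.6%, 81.3%, 4.04% and 61.4% before thinning). Ly6g was found in 45.3%, 48.0%, 1.55% and 39.3% (84.0%, 93.3%, 3.45% and 69.3% before thinning). Macrophage- and microglia-like cells, with median depths of 7498, 9566, 14030 and 10671 UMIs, served for comparison. After thinning Lcn2 was found in 4.04%, 1.95%, 5.75% and 4.70% of them and Camp in 5.97%, 1.41%, 0.762% and 7.88%. Lcn2 was found in a larger share of neutrophils than of these cells in every library. Camp at 3 dpi was found in 2.38% of neutrophils against 0.762% of these cells. For Ly6g the shares of these cells were 0.483%, 0.162%, 0.131% and 0.560%.

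The make-up of the secondary sum differed at 3 dpi. Lcn2 made up 42.3% of the secondary UMIs of neutrophils at 3 dpi, against 21.03% in the standard sham, 27.7% in the ActD sham and 21.1% at 14 dpi. Ltf made up 6.67% at 3 dpi against 9.70% to 17.4% elsewhere. Ngp and Camp made up 26.0% and 25.1% at 3 dpi, each within or below its range in the other libraries (31.7% to 40.3% and 23.1% to 31.9%).

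Primary granule genes were near 0 in neutrophils. Their sum was 618 CPM in the standard sham, 15.7 in the ActD sham, 58.0 at 3 dpi and 46.4 at 14 dpi. The standard sham stood out, with log2 ratios over the ActD sham of 5.83 for Elane (neutrophil elastase), 5.40 for Mpo (myeloperoxidase), 4.85 for Prtn3 (proteinase 3) and 5.56 for Ctsg (cathepsin G), where 13.9% of 6482 genes were over 2-fold higher. No member was over 2-fold lower, where 10.2% were (14.5% and 9.67% with TMM scaling). Most of this came from 2 of the 331 cells, which held 89.6% of the primary UMIs. Without them the sum of the standard sham was 65.3 CPM, a log2 ratio of 2.05 over the ActD sham in place of 5.30. The ratios were 2.38 for Elane, 2.14 for Mpo, 1.65 for Prtn3 and 3.06 for Ctsg. Macrophage- and microglia-like cells, with those rich in granule transcripts left out as above, differed too. Elane stood at 17.7 CPM in those of the standard sham and 2.41 CPM in those of the ActD sham. Mpo stood at 15.2 and 1.95 CPM, Prtn3 at 18.8 and 4.41 CPM and Ctsg at 7.46 and 2.05 CPM. Whether the remaining neutrophil levels came from the neutrophils themselves was not tested.

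At 3 dpi the primary sum of neutrophils was mostly Prtn3, with 102 of 141 UMIs (72.3%, 64.2% to 79.5%), whereas Prtn3 gave 38.7% in the standard sham, 52.6% in the ActD sham and 37.1% at 14 dpi. Prtn3 was found in 3.80% of the 3 dpi neutrophils after thinning (9.75% before), against 1.55% of the macrophage- and microglia-like cells, and its level was 42.0 against 12.5 CPM. Elane, at 5.35 CPM in these neutrophils, stood beside 3.43 CPM in the macrophage- and microglia-like cells, with an interval of 2.85 to 9.15 CPM. At 14 dpi over the ActD sham, 3 of the 10 members were over 2-fold higher (Elane, Mpo and Ctsg, at 13.2, 9.56 and 6.38 CPM), where 7.98% of 7692 genes were, and no member was over 2-fold lower, where 5.71% were (8.75% and 4.63% with TMM scaling). The ActD sham held only 5 UMIs of Elane, 3 of Mpo and 1 of Ctsg. Without those rich in granule transcripts, macrophage- and microglia-like cells held Elane, Mpo and Ctsg at 8.88, 6.63 and 4.42 CPM at 14 dpi. In the ActD sham these cells held them at 2.41, 1.95 and 2.05 CPM. Whether the neutrophil levels at 14 dpi came from the neutrophils themselves was not tested.

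Further granule genes were counted from lists. Of 12 further products of secondary granules, 8 were over 2-fold lower at 3 than at 14 dpi and 1 was higher, with a median log2 ratio of -3.19 against 1.08 over all genes. Of all genes in this pair, 5.92% were over 2-fold lower and 53.1% higher (22% and 19.8% with TMM scaling). Olfm4 (-4.87), which marks a subset of neutrophils, Itgb2l (-3.88), an integrin subunit, and Cd177 (-3.77), a surface glycoprotein that presents proteinase 3, were the lowest. Chil3 (1.16), a chitinase-like protein also made by macrophages, was the one that was higher, but with TMM scaling it was not past 2-fold. At 14 dpi over the ActD sham none of the 12 passed 2-fold, with Slpi, a protease inhibitor, at 0.83 and Cd177 at -0.72 at the ends. Of all genes in that pair, 7.98% were over 2-fold higher and 5.71% lower (8.75% and 4.63% with TMM scaling).

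Genes of the gelatinase and secretory granules, which form after the secondary granules, had a median log2 ratio of -0.71. Of 8 genes, 1 was over 2-fold lower at 3 than at 14 dpi (Mmp25, a membrane metalloproteinase, -2.79) and 1 higher (Slc11a1, a metal transporter, 1.19), while Mmp9, the gelatinase itself, was at -0.64. With TMM scaling the median of these genes and Mmp9 were over 2-fold lower, and Slc11a1 was not past 2-fold. Among 5 measured of 6 further primary granule genes, 3 were higher at 3 dpi: Ctsc, the protease that activates the serine proteases (2.66), Gusb (2.62) and Cd63 (1.69), lysosomal proteins that other myeloid cells make too. Prss57 stood at -1.03 and, with 0.5 UMIs added as in the count, was not past 2-fold. Of 8 measured regulators, Myb (-4.80) and Cebpe (-2.48), factors of the promyelocyte and myelocyte stages, were lower at 3 dpi, and Irf8 (1.98), Runx1 (1.62) and Cebpa (1.01) were higher. Myb and Cebpe are genes of the progenitor gate, whose cells were not counted as neutrophils, so that their levels in neutrophils are a description. Of 8 cell cycle genes, Rrm2 (1.45) and Cdk1 (1.23) were higher and none was lower. Beside these counts, 53.1% of all genes were over 2-fold higher in this pair and 5.92% lower (19.8% and 22% with TMM scaling). With TMM scaling Ctsc (1.49) and Gusb (1.44) stayed past 2-fold, while Irf8 (0.81), Cd63 (0.52), Runx1 (0.45), Rrm2 (0.27), Cdk1 (0.05) and Cebpa (-0.16) did not.

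The primary granule genes were far higher in progenitor-like cells than in neutrophils. At 14 dpi the 205 cells held the primary sum at 10149 CPM, against 46.4 CPM in the neutrophils of the same library, a log2 ratio of 7.77 (7.61 to 7.94). Elane was higher by 8.12, Prtn3 by 7.78, Ctsg by 7.57 and Mpo by 7.27, and Fcnb by 3.99. Ly6g stood at -2.67. In this pair 5 members were over 2-fold higher, where 48.6% of 9905 genes were, and 1 was lower, where 12.7% were (32.1% and 26.1% with TMM scaling), and the median gene was higher by 0.94. The secondary sum hardly differed, at 64986 against 57249 CPM (0.18), and it turned to -0.66 with TMM scaling.

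Across libraries the progenitor-like cells differed in the balance of the classes. The primary sum was 20476 CPM in the standard sham, 4800 in the ActD sham, 27291 in the 8 cells at 3 dpi and 10149 at 14 dpi. The secondary sum was 19751, 47831, 5310 and 64986 CPM. The 3 dpi and standard sham cells had the highest primary and the lowest secondary sums, and these are the 2 libraries of software version 3.0.1, so that version and condition cannot be told apart here. Within the primary class, Elane gave 37.8%, 29.2%, 29.0% and 36.2% of UMIs, Prtn3 gave 32.8%, 46.4%, 29.4% and 37.3%, Mpo gave 18.2%, 11.9%, 23.7% and 14.5%, and Ctsg gave 11.3%, 12.4%, 17.9% and 11.96%. Ly6g stood at 21.6, 164, 6.61 and 128 CPM in these cells, and Fcnb at 518, 338, 403 and 935 CPM.

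Sex-linked transcripts differed between cell classes in some libraries. Among the progenitor-like cells that could be called, those with a Y-linked transcript and no Xist made up 94.0% at 14 dpi and 4.27% in the standard sham. They made up 89.7% and 21.2% among neutrophils, against 46.8% and 41.6% among macrophage- and microglia-like cells of the same libraries. B-cell-like cells stood at 89.4% and 4.67%. In the ActD sham the values were 18.2% (5.19% to 40.3%) in progenitor-like cells, 32.5% in neutrophils, 25.9% in B-cell-like cells and 44.8% in macrophage- and microglia-like cells, and at 3 dpi 50% of the 8 progenitor-like cells, 49.4%, 61.0% and 65.5% in the same order. Cells with at least 2 of 3 pro-B genes (Vpreb1, Igll1 and Rag1) numbered 127 and 7 in the standard and ActD sham, 0 at 3 dpi and 133 at 14 dpi, and cells with at least 2 of 3 erythroid genes 27, 3, 1 and 29, in the same order as the progenitor-like cells. Their part in the results was not tested.

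Single progenitor-like cells held the 2 classes alone or together. With a limit of 0.1% of UMIs for each sum, 55 of the 205 cells at 14 dpi held the primary genes alone, 35 held both, 95 held the secondary genes alone and 20 held neither. In the standard sham the numbers were 62, 27, 13 and 22 of 124, in the ActD sham 8, 2, 12 and 1 of 23, and at 3 dpi 4, 4, 0 and 0 of 8. At 14 dpi cells with both classes had a median of 26614 UMIs, against 35204 in cells with the primary genes alone and 21386 in cells with the secondary genes alone. In the standard sham the medians were 38126, 39681 and 18546 UMIs, and in the ActD sham the 2 cells with both were deeper, at 97136 UMIs against 74432 and 37186. At 3 dpi the medians were 19420 UMIs with both and 19091 with the primary genes alone. After thinning to 1000 UMIs, 39 of the 205 cells held all 4 primary genes and 114 all 4 secondary genes.

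**Figure D3:**
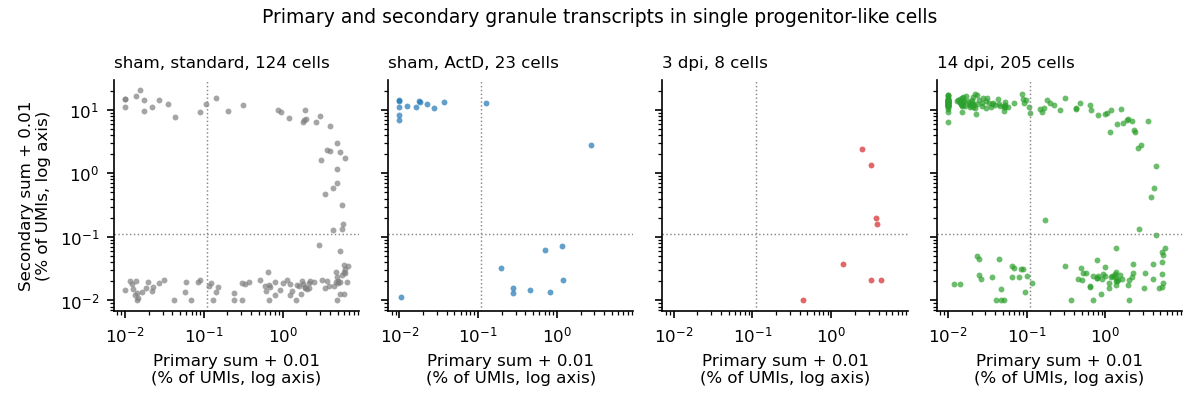
Share of UMIs from the primary (horizontal) and secondary (vertical) granule genes in each progenitor-like cell, both with 0.01 added and on log axes, with 1 panel per library. Dotted lines mark the limit of 0.1%, and the 35 cells of 14 dpi and 27 of the standard sham that hold both classes lie on an arc from the cells with the primary genes alone to those with the secondary genes alone.

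Fcnb was highest in the cells with both classes. At 14 dpi it stood at 112 CPM in cells with the primary genes alone, 2854 in cells with both, 1002 in cells with the secondary genes alone and 0 in cells with neither. The standard sham gave the same order, at 85.2, 1696, 1199 and 0 CPM. The single members shifted within the mixed cells. Elane at 14 dpi was at 6674 CPM in cells with the primary genes alone and at 7013 CPM in cells with both, whereas Mpo was at 3315 and 1461 CPM and Ctsg at 2999 and 678 CPM. Prtn3 was at 8052 and 4478 CPM. Elane thus stayed high where the other primary genes were lower. In the standard sham Elane stood at 8251 and 14895 CPM and Prtn3 at 8274 and 10474 CPM, while Mpo (5270 and 4382 CPM) and Ctsg (3586 and 2044 CPM) were again lower in the cells with both.

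The secondary genes were likewise unequal in the mixed cells. Camp at 14 dpi was at 43507 CPM in cells with both classes and 54003 CPM in cells with the secondary genes alone, and Ngp was at 26160 and 45951 CPM. Lcn2 was at 7296 and 18713 CPM and Ltf at 2427 and 10835 CPM. Ly6g was at 29.2 and 311 CPM. Camp was therefore nearest to its full level in the mixed cells, and Ltf and Ly6g were furthest from it.

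Levels of some genes outside the 2 classes are given for the same groups of cells. Irf8, a factor of monocyte and dendritic cell lineages, was at 450 CPM in the 14 dpi cells with the primary genes alone, 33.6 in those with both and 12.01 in those with the secondary genes alone. Cebpe, a factor needed for secondary granules and 1 of the gate genes, was at 92.9, 766 and 822 CPM. Kit and Cd34, receptors of early progenitors that the gate used, were at 174 and 180 CPM in cells with neither class. The gate admitted cells by Cebpe, Kit and Cd34 among others, so that the levels of these genes are a description. Mki67, a marker of dividing cells, was at 558, 709, 912 and 465 CPM in cells with the primary genes, both, the secondary genes and neither.

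Beside the 48.6% of all genes that were higher and 12.7% that were lower in this pair, all 8 cell cycle genes were over 2-fold higher in progenitor-like cells than in neutrophils at 14 dpi, from Ccnb2 (3.51) to Rrm2 (5.98), and all 8 genes of the gelatinase and secretory granules were over 2-fold lower, with Fpr1, a formyl peptide receptor, at -5.83 and Mmp9 at -5.38. Of the 12 further secondary genes 4 were lower, led by Mmp8, the neutrophil collagenase (-5.49), and Slpi (-3.06), and Chil3 was higher (1.21). Among 5 further primary genes Prss57, a serine protease of the same family, was higher by 4.10 and Srgn, the core of granule proteoglycans, was lower (-1.33). Of the regulators outside the gate, Irf8 (3.09), Cebpa (1.34) and Runx1 (1.18) were higher and Cebpb (-1.74) was lower, but with TMM scaling Cebpa (0.50) and Runx1 (0.34) were not past 2-fold.

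To place the members along 1 axis, the cells of both gates were ranked in each library by the progenitor genes minus the mature neutrophil genes, none of which is a member, and cut into bins of equal size. At 14 dpi the 1213 cells gave 10 bins, with 122, 78, 3 and 2 progenitor-like cells in the first 4. The primary sum was 14857 CPM in bin 1, 1336 in bin 2, 249 in bin 3 and 34.1 in bin 4. Fcnb was at 1005, 709, 131 and 34.1 CPM in the same bins. Camp was at 19391 CPM in bin 1, highest in bin 2 (46920) and at 330 in bin 10. Ltf was highest 1 bin later (13832 in bin 3), as were Lcn2 (17685) and Ly6g (1140). Median depth went from 26580 UMIs in bin 1 to 3111 in bin 10, and its part in the order was not tested.

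Each member had a mean place in the ranking at 14 dpi, from 0% at the most progenitor-like cell to 100% at the most mature. Each cell was weighted by the share of its UMIs that came from the member, not by the number of these UMIs, so that shallow cells count as much as deep ones. It was 4.97% for Elane, 5.51% for Ctsg, 5.85% for Prtn3, 6.09% for Mpo, 9.91% for Fcnb, 23.6% for Camp, 27.7% for Ngp, 29.1% for Ltf, 40.2% for Lcn2 and 49.5% for Ly6g. The primary genes thus came first, then Fcnb, the secondary genes and Ly6g. When the progenitor genes alone were used, Fcnb (7.76%) fell between Elane and Prtn3 (5.50% and 7.85%), and with the mature genes alone it again followed all 4 primary genes (12.3%).

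In the sham libraries the same ranking placed the primary genes before Fcnb and Fcnb before the secondary genes. In the standard sham the primary genes lay at 8.35% to 9.69%, Fcnb at 19.2%, Camp at 37.4%, Ltf at 43.8%, Ngp at 44.3%, Lcn2 at 54.1% and Ly6g at 62.5%. In the ActD sham, with 98 cells in 5 bins, the primary genes lay at 3.93% to 4.91%, Fcnb at 15.3%, Camp at 29.96%, Ngp at 35.7%, Ltf at 38.2%, Lcn2 at 45.9% and Ly6g at 57.3%. Ngp and Ltf changed places between libraries. With the progenitor genes alone Fcnb came first in the ActD sham (12.3%), ahead of the primary genes at 13.1% to 18.6%, and in the standard sham it stayed after them (13.1%). Fcnb had its highest bin after that of the primary sum in the standard sham, in bin 3 (714 CPM), where the primary sum was 5277 CPM after 38339 CPM in bin 1.

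**Figure D4:**
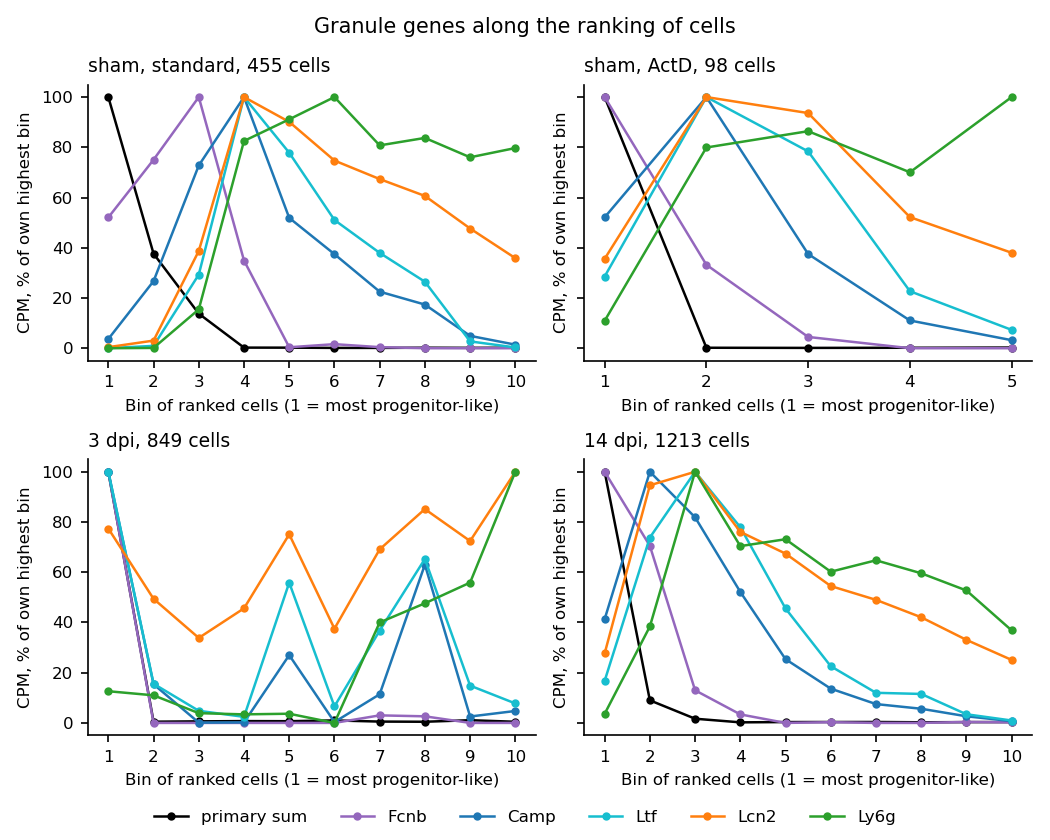
Level of the primary sum, Fcnb, Camp, Ltf, Lcn2 and Ly6g along the ranked cells of each library, as a percentage of the highest bin of the same gene (CPM). In the 2 sham libraries and at 14 dpi the curves of the other genes decline one after another while Ly6g keeps the largest part of its highest level in the last bin, which in the ActD sham is its highest, whereas at 3 dpi the values after bin 1 go up and down.

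At 3 dpi the mean places were 3.49% for Elane, 4.80% for Ctsg, 6.05% for Mpo, 9.38% for Fcnb, 19.7% for Prtn3, 27.2% for Camp, 36.0% for Ngp, 36.5% for Ltf, 54.5% for Lcn2 and 74.8% for Ly6g, so that Fcnb came before Prtn3 but the classes otherwise followed the same order. With the progenitor genes alone Camp (17.7%) came before Prtn3 (20.6%), and with the mature genes alone Prtn3 (19.6%) stayed before Camp (33.3%). The bins did not follow the order of the classes step by step. All 8 progenitor-like cells lay in bin 1, where the primary sum was 9116 CPM, and it was 42.0 to 98.5 CPM in the other 9 bins. The secondary sum lay between 873 and 7055 CPM over bins 2 to 10, going up and down. Ly6g was at 15.4 CPM in bin 1 and 122 CPM in bin 10, the highest, where Retnlg, 1 of the gate genes, was also highest (7916 CPM). Lcn2 stayed between 831 and 2454 CPM in all bins.

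Within the secondary class the members gave way to each other along the ranking at 14 dpi. Camp made up 47.8% of the secondary UMIs in bin 1, 24.9% in bin 5 and 5.64% in bin 10. Lcn2 made up 12.1%, 24.96% and 75.7% in the same bins. Ltf was highest in bin 4 (14.3%) and lower at both ends (5.71% and 2.27%), and Ngp stayed at 34.4% and 36.9% before 16.4%. In bins 7 to 10 Lcn2 was the largest share, as it was over all 3 dpi neutrophils (42.3%).

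**Figure D5:**
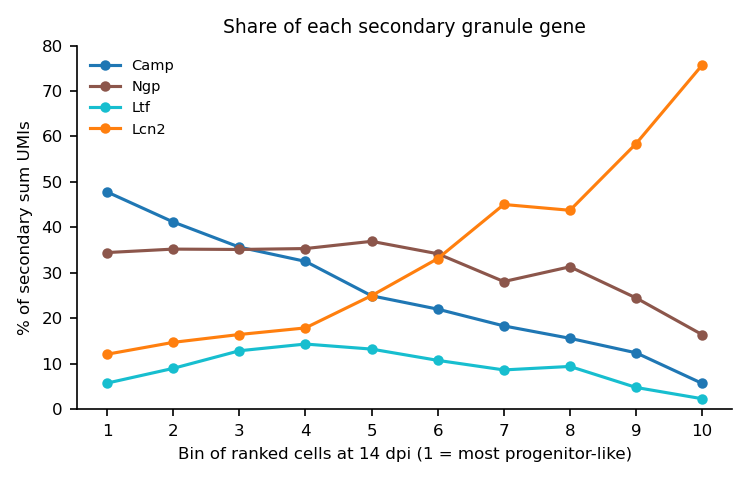
Share of the secondary granule UMIs contributed by Camp, Ngp, Ltf and Lcn2 in each of the 10 bins of ranked cells at 14 dpi. Camp goes from 47.8% to 5.64% and Lcn2 from 12.1% to 75.7% between the first and the last bin.

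Over the 35 bins of the 4 libraries, other genes followed the members closely. Members and genes of the gates were left out of these rankings among 7320 genes. Rps27a, a ribosomal protein (Pearson r = 0.940 of log2(CPM + 1)), Bex6 (0.929) and Hsp90ab1, a chaperone (0.928), were most like the primary sum. Cybb, the catalytic subunit of the NADPH oxidase (0.941), Vcl, the adhesion protein vinculin (0.921), and Itgb2l (0.919) were most like the secondary sum. S100a9 (0.964), S100a8 (0.959) and Ifitm6 (0.947) were most like Ly6g, and Bub1 (0.911), Ticrr (0.901) and Depdc1a (0.891), genes of DNA replication and mitosis, most like Fcnb. Among the members Ly6g was nearer to Lcn2 (0.912) than to the secondary sum (0.737). These correlations are descriptions over bins that share libraries and a gradient of depth.

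Many transcripts of the members lay outside both gates. Of the primary UMIs of kept cells, 50.7%, 44.1%, 58.6% and 49.6% were in progenitor-like cells of the standard and ActD sham, 3 dpi and 14 dpi, and 0.832%, 0.118%, 1.998% and 0.269% in neutrophils. At 14 dpi 34 further cells gave at least 1% of their UMIs to the primary genes and held 28.5% of them. Of these, 30 had UMIs of at least 3 progenitor genes and were left out for genes of other lineages. The 34 cells together held Elane at 6915 CPM and the secondary sum at 117 CPM, with F13a1, a monocyte gene, at 395 CPM and Irf8 at 297 CPM.

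Cells between the gates carried the highest secondary levels. These cells, defined after the data were seen by S100a8 and S100a9 at 3% of UMIs or more in neither gate, numbered 33, 9, 74 and 153. At 14 dpi they held the secondary sum at 120232 CPM, above both gates, with Camp at 48910, Fcnb at 677 and the primary sum at 1417 CPM, and they held 25.5% of all secondary UMIs. When they were added to the neutrophils the 3 dpi over 14 dpi ratio of the secondary sum was -4.13, the 14 dpi over ActD sham ratio turned from -0.28 to 0.02, and the primary ratio of progenitor-like cells over neutrophils at 14 dpi went from 7.77 to 4.65. Ly6g lay mainly in the neutrophil gate, with 72.7%, 67.0%, 68.2% and 68.6% of its UMIs.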

How the data were processed

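Raw UMI counts per gene and barcode were deposited by the authors as 1 filtered matrix per library, made with Cell Ranger (3.0.1 or 3.1.0 per the file headers) on mm10 per the submitters' processing notes. The study's filters were applied first (at least 600 genes, at most 10% mitochondrial UMIs, no Itgam together with a lymphoid marker). Doublets were removed by Scrublet score (scanpy 1.11.5) at 0.8% per 1000 cells, in place of the study's caller. Neutrophil and progenitor gates left out cells with at least 0.3% of UMIs from a list of macrophage and microglia genes (otherwise the macrophage- and microglia-like reference) or UMIs of at least 2 of 14 lymphoid, mast and basophil genes, and a cell of both gates counted as progenitor-like. UMIs were summed per class. Intervals are exact Poisson, conditional binomial or Clopper-Pearson. With 1 library per condition no test was possible. Genes past 2-fold were counted among those with 20 UMIs or more over both classes compared, after adding 0.5 UMIs to each. TMM factors came from edgeR 4.0.16. Interval coverage was tested on simulated Poisson counts only, which hold no spread between cells or libraries, so that the test cannot speak to either. Gene positions were matched to GENCODE M21 (30934 of 31053 identifiers) and promoters to RefSeq (10 of 10 members).

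Members, gene lists and gates were chosen with earlier results of these data known. Named genes were the members, up to 3 genes of each list with the largest difference in each direction, and the 3 genes most correlated with each pattern. The last were taken among genes with at least 200 UMIs outside the members and gates. The cells between the gates and the subsets by S100a8 and S100a9 or by granule UMIs, and F13a1 in the cells outside the gates, were chosen after the data were seen.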

Additional observations from a re-analysis of the deposited data

How the results depend on the processing

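No paired analysis was possible because each condition was 1 library. With 1 library per condition the intervals cover counting error only, and the depth of 2540 UMIs in the median 3 dpi neutrophil limits what can be said of genes at a few CPM. The 3 over 14 dpi ratio of the secondary sum was negative under all alternatives run, as was the 3 dpi over ActD sham ratio, whereas the 2 smaller ratios changed sign under some. Of 623 alternative values for 34 ratios of members or of the primary sum past 2-fold, 620 kept their direction. The exceptions were Elane in 3 over 14 dpi (1.12 with gate genes at 0.05% of UMIs or more), Prtn3 in 3 over 14 dpi (-0.85 with the cells between the gates) and Ltf in 3 dpi over ActD sham (1.06 without cells at 1% secondary UMIs or more), and the cause was not tested. All 4 primary genes preceded all 4 secondary genes in each ranking run at 14 dpi, and the 35 cells with both classes became 44 and 27 with limits of 0.05% and 0.2%. At 3 dpi Camp came before Prtn3 when the progenitor genes alone were used.

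Values of the log2 ratio of the secondary sum that moved by more than their counting interval are given next by setting, beside the reported -3.82 (3 over 14 dpi), -4.10 (3 dpi over ActD sham), -0.28 (14 dpi over ActD sham) and -0.11 (standard over ActD sham), with 7.77 for the primary sum of progenitor-like cells over neutrophils. Looser filter of 200 genes, 20% mitochondrial UMIs gave -4.13 for 3 dpi over ActD sham. Stricter filter of 1000 genes, 5% mitochondrial UMIs gave -3.94 for 3 dpi over ActD sham, -0.13 for 14 dpi over ActD sham and -0.06 for standard over ActD sham. No doublet removal gave -3.91 for 3 over 14 dpi, -4.22 for 3 dpi over ActD sham and -0.32 for 14 dpi over ActD sham. Cells with Itgam and a lymphoid marker kept gave -0.27 for 14 dpi over ActD sham and -0.13 for standard over ActD sham. Neutrophil gate genes at least 0.05% of UMIs gave -4.09 for 3 over 14 dpi, -4.21 for 3 dpi over ActD sham, -0.12 for 14 dpi over ActD sham and -0.19 for standard over ActD sham. Neutrophil gate genes at least 0.2% of UMIs gave -3.87 for 3 over 14 dpi, -4.18 for 3 dpi over ActD sham, -0.31 for 14 dpi over ActD sham and 0.03 for standard over ActD sham. At least 2 of 6 neutrophil gate genes gave -4.00 for 3 over 14 dpi, -4.28 for 3 dpi over ActD sham and -0.13 for standard over ActD sham. At least 4 of 6 neutrophil gate genes gave -3.72 for 3 over 14 dpi and -4.01 for 3 dpi over ActD sham. Neutrophil gate without Retnlg gave -3.70 for 3 over 14 dpi, -4.17 for 3 dpi over ActD sham, -0.47 for 14 dpi over ActD sham and 0.13 for standard over ActD sham. At least 2 of 6 progenitor gate genes gave -3.57 for 3 over 14 dpi, -3.77 for 3 dpi over ActD sham, -0.20 for 14 dpi over ActD sham, -0.01 for standard over ActD sham, 7.13 for the primary sum of progenitor-like cells over neutrophils and 429 progenitor-like cells at 14 dpi in place of 205. At least 4 of 6 progenitor gate genes gave -3.87 for 3 over 14 dpi, -4.19 for 3 dpi over ActD sham, -0.32 for 14 dpi over ActD sham, -0.07 for standard over ActD sham, 7.53 for the primary sum of progenitor-like cells over neutrophils and 95 progenitor-like cells at 14 dpi in place of 205. No exclusion of other lineages gave -4.11 for 3 over 14 dpi, -4.37 for 3 dpi over ActD sham, -0.26 for 14 dpi over ActD sham and -0.29 for standard over ActD sham. Cells between the gates added to the neutrophils gave -4.13 for 3 over 14 dpi, 0.02 for 14 dpi over ActD sham, -0.07 for standard over ActD sham and 4.65 for the primary sum of progenitor-like cells over neutrophils. Neutrophils with S100a8 and S100a9 at least 1% of UMIs gave -3.53 for 3 over 14 dpi, -3.80 for 3 dpi over ActD sham and -0.08 for standard over ActD sham. Neutrophils without cells at 1% or more secondary granule UMIs gave -1.82 for 3 over 14 dpi, -2.27 for 3 dpi over ActD sham, -0.46 for 14 dpi over ActD sham, -0.34 for standard over ActD sham and 7.47 for the primary sum of progenitor-like cells over neutrophils. The last 3 settings were chosen after the data were seen. The last of them leaves out cells by the measured sum itself, so that its smaller ratios follow from its construction. TMM scaling gave -4.99 for 3 over 14 dpi, -4.96 for 3 dpi over ActD sham, -0.20 for 14 dpi over ActD sham, -0.08 for standard over ActD sham and 6.93 for the primary sum of progenitor-like cells over neutrophils. Mean over cells of each cell's own CPM gave -4.06 for 3 over 14 dpi, -4.63 for 3 dpi over ActD sham, -0.57 for 14 dpi over ActD sham, -0.22 for standard over ActD sham and 7.16 for the primary sum of progenitor-like cells over neutrophils. Each cell thinned to 1000 UMIs gave -4.03 for 3 over 14 dpi, -4.61 for 3 dpi over ActD sham, -0.58 for 14 dpi over ActD sham, -0.22 for standard over ActD sham, 7.35 for the primary sum of progenitor-like cells over neutrophils and 3 progenitor-like cells at 14 dpi in place of 205. TMM scaling also changed the number of genes over 2-fold higher and lower from 4814 and 537 to 1793 and 1993 (3 over 14 dpi), from 4067 and 638 to 2366 and 1545 (3 dpi over ActD sham) and from 4816 and 1260 to 3175 and 2582 (progenitor-like cells over neutrophils).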
